A study of Mus musculus with 2 samples.

Results

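The interferon-γ type genes described here are 10 genes encoding the immunity-related GTPases Iigp1, Igtp, Irgm1 and Irgm2, the guanylate-binding proteins Gbp2, Gbp3 and Gbp5, the chemokines Cxcl9 and Cxcl10, and the transcription factor Irf1. They were chosen from 19936 named nuclear genes by their function and by the differences between the 2 arrays reported below, so that these differences are a description and support nothing. Transcripts were measured in gastrocnemius muscle of C57BL/6 male mice on 2 Affymetrix Mouse Gene 1.0 ST arrays, 1 for each genotype, control or PGC-1β(i)skm-/-, with RNA of 3 mice pooled on each. Control mice, whose label reads wild-type, carried floxed PGC-1β L2/L2 alleles without the HSA-Cre-ERT2 transgene, and mutant mice carried the same alleles with it. Tamoxifen was given to both genotypes from the age of 7 weeks, for 5 days with 1 mg on each, and the mice were analysed at 8 weeks. Cre-ERT2 is driven by human skeletal actin regulatory elements in myofibres, so that PGC-1β was to be lost in these cells and not in the vessels, connective tissue or leukocytes of the muscle. Since the transgene was present in mutant mice alone, its own effect and that of the deletion cannot be told apart. No replicate array was analysed, so that no test was made, no value has an error, and precision is limited by the number of arrays.

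Interferon-γ, secreted mainly by T cells and natural killer cells, binds a receptor of the Ifngr1 and Ifngr2 chains, and the kinases Jak1 and Jak2 relay the signal, which acts through GAS elements of promoters. Irf1 is an early target and itself a transcription factor, which binds ISRE elements of later targets. Among these targets are immunity-related GTPases and guanylate-binding proteins, which attack the vacuoles of intracellular pathogens, and Cxcl9, Cxcl10 and Cxcl11, the ligands of the receptor Cxcr3 of activated T cells. These genes are expressed in many cell types, including endothelial cells, macrophages and muscle cells exposed to interferon.

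Of the 10 genes, 7 had a probe set annotated to them alone. Igtp and Irgm2 were measured by 1 common probe set, and Gbp2 by a probe set it has in common with its paralogue Gbp2b, so that the values of these 3 genes cannot be separated from those of the second gene. With both probe sets of Irf1, 10 probe sets were available. Signals are log2 values computed by RMA, in which background is removed, arrays are brought to the same distribution and the probes of each probe set are summarized. The log2 difference is the signal of the mutant minus that of the control array.

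To show what the regulatory regions of these genes have in common, the 300 bases from 250 before to 50 after the transcription start were searched on both strands, in RefSeq sequence of GRCm38.p6, for a GAS element (TTC, any 3 bases, GAA) and for the core of an ISRE (GAAA, any 2 bases, GAAA). Windows were matched for 9 of the 10 genes, all but Iigp1. A GAS match was found for 4 of these genes (Gbp5, Igtp, Irf1 and Irgm2) and an ISRE match for 7 (Cxcl10, Gbp2, Gbp3, Gbp5, Igtp, Irgm1 and Irgm2), whereas the window of Cxcl9 had neither. Of all 32851 windows of that length, 8.30% held a GAS match, 3.44% an ISRE match and 0.454% both, which Gbp5, Igtp and Irgm2 had. Gbp3 and Irf1 have 2 windows each and were counted by either. A match is a run of letters and not a site shown to be bound. Elements that depart from these letters are missed, so that a window without a match, as for Cxcl9, may still hold one.

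The stretches before the start are shown for Gbp5 and Cxcl9, whose signals differed most between the arrays among genes with a window, and for Cxcl10, Igtp, Irgm2 and Irgm1, whose signals differed little, 5′ to 3′ on the strand of the gene, with matches in capitals. They lie at chr3:142496684-142496933 on the plus strand (Gbp5), chr5:92328080-92328329 on the minus strand (Cxcl9), chr5:92348890-92349139 on the minus strand (Cxcl10), chr11:58199456-58199555 on the plus strand (Igtp), chr11:58214877-58214976 on the plus strand (Irgm2) and chr11:48871421-48871520 on the minus strand (Irgm1).
Gbp5: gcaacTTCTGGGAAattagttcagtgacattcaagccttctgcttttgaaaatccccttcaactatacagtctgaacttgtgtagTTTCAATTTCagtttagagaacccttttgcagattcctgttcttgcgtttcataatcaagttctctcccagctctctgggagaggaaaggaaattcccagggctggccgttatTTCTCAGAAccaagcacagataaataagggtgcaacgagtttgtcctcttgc
Cxcl9: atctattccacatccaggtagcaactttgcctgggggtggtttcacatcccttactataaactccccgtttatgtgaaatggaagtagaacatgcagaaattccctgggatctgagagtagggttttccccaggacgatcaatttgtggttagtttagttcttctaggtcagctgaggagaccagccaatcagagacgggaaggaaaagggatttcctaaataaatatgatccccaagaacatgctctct
Cxcl10: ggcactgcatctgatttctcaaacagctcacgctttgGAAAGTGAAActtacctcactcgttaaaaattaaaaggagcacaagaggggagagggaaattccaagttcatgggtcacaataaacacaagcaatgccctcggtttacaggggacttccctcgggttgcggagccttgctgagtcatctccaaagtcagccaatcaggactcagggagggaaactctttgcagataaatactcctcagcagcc
Igtp: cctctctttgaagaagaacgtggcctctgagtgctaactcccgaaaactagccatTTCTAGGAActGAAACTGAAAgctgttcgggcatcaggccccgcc
Irgm2: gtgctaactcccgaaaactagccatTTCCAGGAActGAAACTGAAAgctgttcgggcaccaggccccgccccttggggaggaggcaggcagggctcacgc
Irgm1: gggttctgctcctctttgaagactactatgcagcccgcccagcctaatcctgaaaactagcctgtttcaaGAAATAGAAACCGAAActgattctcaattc

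In Gbp5, the 1st run of capitals and the last are GAS matches, beginning at positions −245 and −52 from the start, and the run between them is an ISRE match on the opposite strand, at position −165. In Igtp and Irgm2, the GAS match is followed after 2 bases by the ISRE match. This arrangement was found in 5 of the 32851 windows, those of Igtp, Irgm2, Tgtp1, Tgtp2 and Gm12185, a search added after the matches in Igtp and Irgm2 were seen. The log2 differences measured for these genes ranged from −0.96 for the probe sets of Tgtp1 and Tgtp2 to 0.08 for Gm12185, whose log2 signals were 4.69 and 4.77. In Irgm1, the capitals are 2 overlapping ISRE matches, and no GAS match was found. The stretch of Cxcl10 has 1 ISRE match, at position −213. Of 11 listed relatives outside the 10 genes with a window, 4 held matches of both kinds (Gbp7, Gm12250, Tgtp1 and Tgtp2). Among these relatives, 2 held an ISRE match alone (Gbp2b and 9930111J21Rik1), and 5 neither (9930111J21Rik2, Cxcr3, Gm5431, Ifi47 and Irgq). Gm12185 was not on the list of relatives, so that its matches are not in these counts.

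On the mutant array, Iigp1, Cxcl9 and Gbp5 had lower signals than on the control array, at ratios from 0.597 to 0.708, and the probe set of Gbp2 and Gbp2b followed at 0.811. Gbp3, Irf1, Irgm1 and the probe set of Irgm2 and Igtp were at ratios from 0.895 to 0.933, and Cxcl10 at 1.05. The log2 difference ranged from −0.74 for Iigp1 to 0.07 for Cxcl10 over the 7 genes with a probe set of their own, with a median of −0.16. Over all 19936 genes the median was −0.0006 and the standard deviation 0.12. The ratio of the mutant signal to that of the control was at most 0.8 in 3 of the 7 genes and at least 1.2 in none, these being thresholds of the study's methods. Among named nuclear genes as a whole, 0.652% were at or below 0.8 and 1.64% at or above 1.2. Since the members were chosen on this difference, nothing is read from their count.

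**Figure D1:**
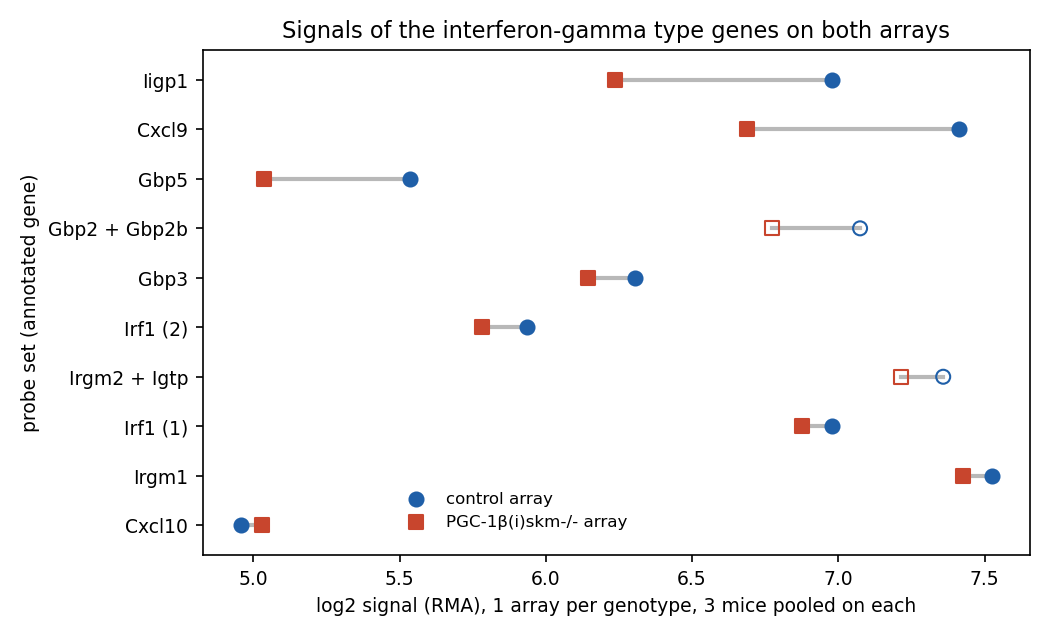
Log2 signal (horizontal axis) of each of the 10 probe sets (vertical axis) on the control array (blue circles) and the PGC-1β(i)skm-/- array (red squares), with open symbols for probe sets of 2 genes and a number after each of the 2 probe sets of Irf1. The mutant signal is to the left of the control signal for 9 probe sets and to the right for Cxcl10.

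Among the immunity-related GTPases, Iigp1 (also named Irga6), an effector that coats and disrupts the vacuole of Toxoplasma and Chlamydia, had a log2 signal of 6.98 in control and 6.24 in mutant muscle. The ratio was 0.597, and of all named nuclear genes its log2 difference was at rank 2 from the lowest. Among these genes, each with a probe set of its own, only Ppargc1b, the targeted gene, lay below it. Ppargc1b had log2 signals of 7.87 and 7.06 and a difference of −0.81. Which of its probes lie in exon 5, the deleted exon, was not analysed here.

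Irgm1, Irgm2 and Igtp (also named Irgm3) are the regulators of this family, which reside on endomembranes and hold the effectors inactive there. Irgm1 had log2 signals of 7.53 and 7.43, a ratio of 0.933, and a difference of −0.10 at rank 3370 of all genes. The probe set annotated to both Irgm2 and Igtp had 7.36 and 7.21, a ratio of 0.904 and a difference of −0.15. The regulators differed less between the arrays than Iigp1, an effector chosen on its difference. Whether effectors and regulators differ as classes was not tested.

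The guanylate-binding proteins Gbp2, Gbp3 and Gbp5 are large GTPases that assemble on pathogen membranes, and Gbp5 also promotes inflammasome assembly. Gbp5 had a log2 signal of 5.54 in control and 5.04 in mutant muscle, a ratio of 0.708, and rank 15 of all genes. Its mean signal was below the median of 6.46 over all genes. The probe set of Gbp2 and Gbp2b had 7.07 and 6.77, a ratio of 0.811, just above the threshold of 0.8. Gbp3 had 6.31 and 6.15, a ratio of 0.895 and rank 1434. All 3 probe sets were thus lower on the mutant array, by unequal amounts.

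Of the chemokines, Cxcl9 had a log2 signal of 7.41 in control and 6.69 in mutant muscle, a ratio of 0.605, at rank 3 of all genes. Cxcl10 had log2 signals of 4.96 and 5.03, a ratio of 1.05, at rank 15319. The difference of Cxcl10, 0.07 on the log2 scale, was within the standard deviation of 0.12 over all genes. That of Cxcl9, a ligand of the same receptor and chosen on its difference, was outside it. Cxcl10 was dim, with a mean log2 signal of 4.99 against a median of 6.46 over all genes. Detection above background was not measured, so that a lower level of Cxcl10 could go unseen. Irf1 had 6.98 and 6.87 with its probe set of higher signal, a ratio of 0.931, and 5.94 and 5.78 with the other, which is annotated to a single cDNA clone, a ratio of 0.897. Both of its probe sets were lower on the mutant array, by 0.10 and 0.16 on the log2 scale.

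**Figure D2:**
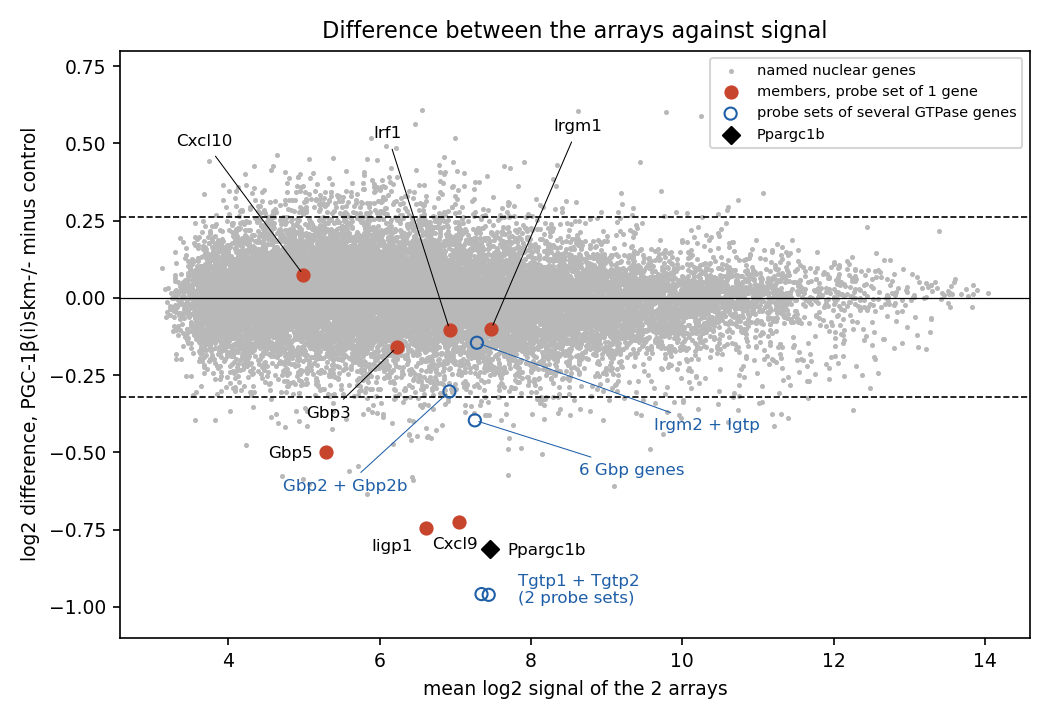
Mutant minus control log2 signal (vertical axis) against the mean log2 signal of the 2 arrays (horizontal axis) for 19936 named nuclear genes (grey), the 7 genes with a probe set of their own (red), 5 probe sets of several GTPase genes (blue circles) and Ppargc1b (black), with dashed lines at ratios of 0.8 and 1.2. Iigp1, Cxcl9 and Gbp5 lie below the lower line, and the 2 probe sets of Tgtp1 and Tgtp2 lie lowest of the marked points.

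With all genes divided by mean signal into 4 bins of 4984, Iigp1 and Cxcl9 were at ranks 2 and 3 of bin 3, in which 0.762% of genes were at or below a ratio of 0.8. Gbp5 was at rank 7 of bin 2, where that share was 0.622%. Irf1 and Irgm1, in the same bin as Iigp1, were at ranks 915 and 953, Gbp3 at rank 344 of bin 2 and Cxcl10 at rank 3773 of bin 1, that of the lowest signals. Of the 7 members with a probe set of their own, Iigp1, Cxcl9 and Gbp5 thus had the lowest ranks among genes of like signal. Gbp3, Irf1, Irgm1 and Cxcl10 ranked higher. As the members were chosen on these differences and no value has an error, whether they form 1 group was not tested. The probe set of Gbp2 and Gbp2b lay between Gbp5 and Gbp3, at −0.30 on the log2 scale and rank 228 of 23410 annotated probe sets.

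Relatives of the GTPases lay on both sides of 0. The lowest were Tgtp1 and Tgtp2, near-identical effector GTPases, which have 2 probe sets annotated to both genes. These had log2 signals of 7.92 and 7.83 in control and 6.96 and 6.87 in mutant muscle, ratios of 0.514 and 0.515. They ranked 8 and 10 from the lowest among 23410 annotated probe sets. Such probe sets, annotated to several genes, had a ratio of 0.8 or less in 1.17% of 1621 cases. As both probe sets measure the same pair of genes, they are not separate observations.

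Of the 5 other immunity-related GTPases with a probe set of their own, Gm4951 was lower (log2 signals 5.55 and 5.22, ratio 0.790) and Irgc1, a member of this family expressed in testis, higher (5.71 and 6.00, ratio 1.23). Gm12250, also named Irgb10, was at −0.19, Gm4841 at −0.04 and Irgq at 0.13 on the log2 scale, and the median of the 5 was −0.04. The probe set of Ifi47 (Irgd), in common with Olfr56, was at 0.08, and those of 9930111J21Rik1 and 9930111J21Rik2 at −0.06 and −0.02. Of 3 probe sets annotated to Gvin1, a very large interferon-inducible GTPase, and to its relatives, 2 were at −0.12 and −0.06 and the brightest at 0.19 (log2 signals 7.57 and 7.77). The lower signal was therefore not found in every probe set of this family. In dim probe sets, such as that of Ifi47 (log2 signals 4.43 and 4.52), a low signal cannot be told from no change.

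Of the 6 other guanylate-binding proteins, Gbp7 had a ratio of 0.770 (log2 signals 8.20 and 7.82) and Gbp9 of 0.814 (7.02 and 6.72). Gbp4 had log2 signals of 7.48 and 7.28. Gbp2b and Gbp11 were both at −0.06 and Gbp8 at 0.01, with control signals between 4.77 and 5.54. The median difference was −0.13, and 5 of the 6 lay below 0, against 50.2% of all genes. A probe set annotated to 6 genes of this family (Gbp4, Gbp6, Gbp8, Gbp9, Gbp10 and Gbp11) had log2 signals of 7.46 and 7.06, a ratio of 0.760. At a ratio of 1/1.2 or less, 2 of the 6 genes were lower, against 1.69% of all named nuclear genes. Of the 7 members, 3 were at or below this ratio. The members were chosen on this difference and the list with earlier results known, so that nothing is read from either count.

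Neighbouring genes were compared because the GTPases and the chemokines lie in clusters. On chromosome 3, Gbp5, Gbp7, Gbp3, Gbp2b and Gbp2 follow each other in this order. Their log2 differences were −0.50, −0.38, −0.16, −0.06 and, for the probe set of Gbp2 and Gbp2b, −0.30. The 3 genes on the side of Gbp5 lay between 0.0041 (Pdlim5) and 0.30 (Unc5c). Those on the side of Gbp2 lay between −0.09 (Kyat3) and −0.06 (Pkn2). No flanking gene was as low as Gbp3, but Gbp2b lay within the range of the flanking genes.

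On chromosome 5, Cxcl9, Cxcl10 and Cxcl11 lie side by side, with the ADP-ribosyltransferase gene Art3 overlapping the span of Cxcl10 and Cxcl11. Their log2 differences were −0.72, 0.07 and 0.15, and that of Art3 was 0.05. Cxcl11, listed as a transcribed pseudogene in RefSeq, had log2 signals of 5.23 and 5.38. The flanking genes ranged from −0.21 (Nup54) to 0.20 (Fam47e). Cxcl9 lay below these genes, but it was chosen on its difference and they were not, so that nothing is read from this. Cxcl10 and Cxcl11 were dim, so that a lower level of either could go unseen.

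On chromosome 11, Igtp and Irgm2 adjoin Gm12250 (−0.19), and the next gene on that side is Mrpl22, of the mitochondrial ribosome, at −0.38. On the side of Irgm2, 4930438A08Rik was at −0.04, Zfp692 at −0.10 and Zfp672 at −0.09. On chromosome 18, Iigp1 has its relatives Gm4951 (−0.34) and Gm4841 (−0.04) on one side, while Smim3 (0.13), Dctn4 (−0.03) and Rbm22 (−0.02) follow on the other. Irgm1 and Irf1, which lie elsewhere on chromosome 11, had a flanking gene lower than themselves. Trim7, next to Irgm1 (−0.10), was at −0.30 and Slc22a5, next to Irf1 (−0.10), at −0.20. The other measured flanking genes ranged from 0.05 (Psme2b, with a probe set in common with Psme2) to 0.10 (Trim41) around Irgm1 and from −0.04 (Slc22a21) to 0.20 (Il13) around Irf1.

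**Figure D3:**
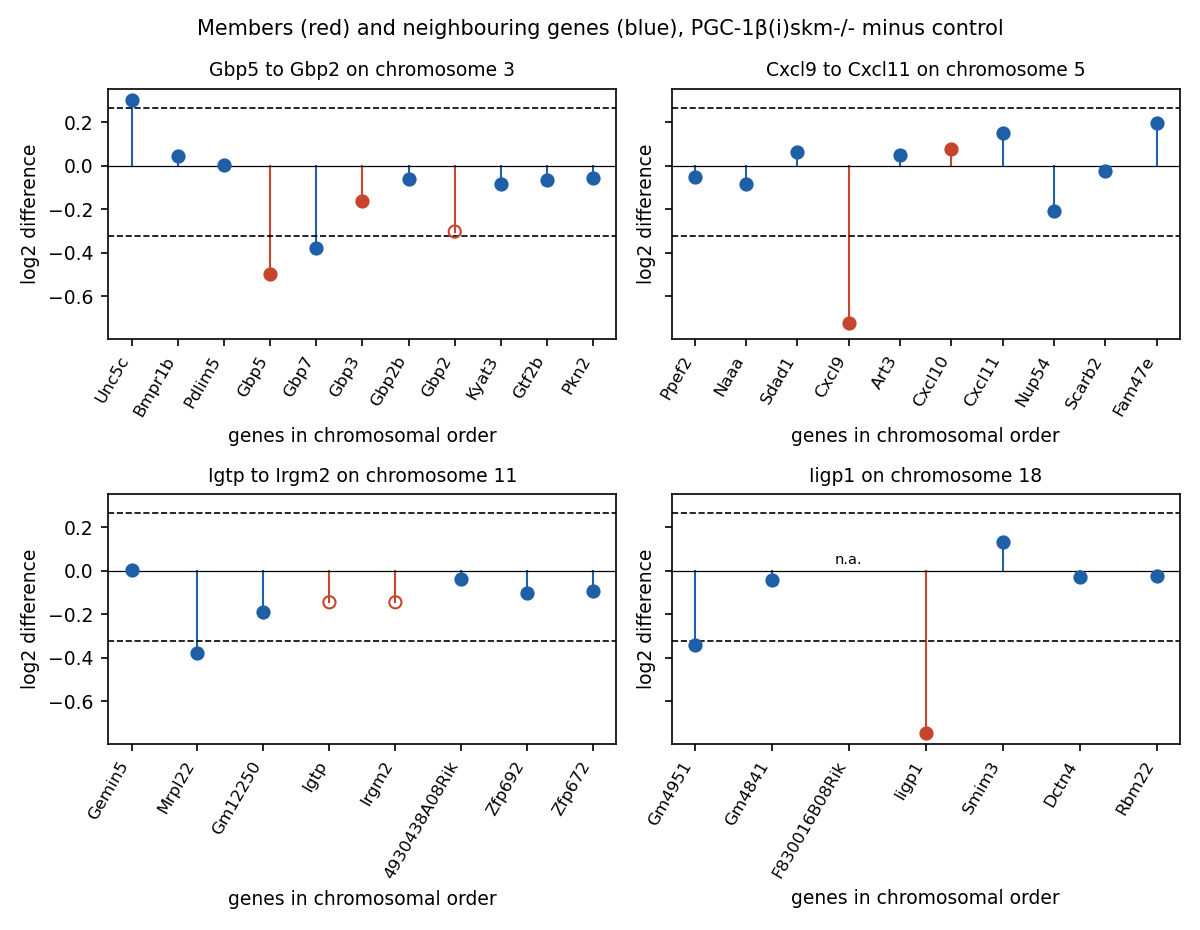
Mutant minus control log2 signal (vertical axes) of members (red) and of neighbouring genes (blue) in their chromosomal order (horizontal axes) in 4 regions, with open circles for probe sets of several genes, n.a. for a gene with no value here, and dashed lines at ratios of 0.8 and 1.2. Cxcl9 lies at −0.72 between neighbours near 0, and the 5 Gbp genes of chromosome 3 lie between −0.50 and −0.06.

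The genes of the interferon-γ pathway itself lay near 0. Of 14 measured, 5 were below 0, with a median log2 difference of 0.03 and none past a ratio of 0.8 or 1.2. Ifng, the ligand, had log2 signals of 5.25 and 5.29. The receptor chain Ifngr1 had 9.70 and 9.85 and Ifngr2 11.74 and 11.80. The kinases Jak1 and Jak2 were at −0.02 and 0.03.

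The lowest of the pathway were transcription factors and a phosphatase. Irf9, a factor of the interferon response that binds ISRE elements, was at −0.24 (log2 signals 7.18 and 6.94), Irf8, a factor of myeloid cells, at −0.21, and Ptpn2, which dephosphorylates Jak kinases, at −0.19 (7.45 and 7.26). Socs1, a feedback inhibitor of the kinases, was at −0.10. Ciita, the master regulator of class II genes, was at 0.11 and dim, with log2 signals of 5.18 and 5.29. Cxcr3, the receptor of the chemokines, was at −0.04 (5.42 and 5.38).

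Other known targets of interferon-γ lay on both sides of 0. Of 25 measured genes, 12 were below 0 and none had a ratio past 0.8 or 1.2, with a median log2 difference of 0.02. The lowest were Casp4, an inflammatory caspase (6.02 and 5.72, ratio 0.815), and Psmb10, a subunit of the immunoproteasome (7.29 and 7.02, ratio 0.824). Psme2, of the proteasome activator, was at −0.18 and the peptide transporter subunit Tap1 at −0.15, while Psmb9, also of the immunoproteasome, was at 0.03. The class II genes H2-Aa, H2-Eb1 and H2-Ab1 were at 0.05, 0.10 and 0.25, and Cd74, their invariant chain, at 0.09. Probe sets annotated to several genes are not in these counts. Those of the class I genes H2-K1 and H2-D1 (with LOC547349) were at −0.15 and −0.10, and that of H2-T23 and H2-T-ps at −0.02. Those of Tapbp and Rps3a1 were at −0.02 and 0.01, and that of Psme2 and Psme2b at 0.05. Among genes with a probe set of their own, interferon-γ targets included Iigp1, the lowest after Ppargc1b and a member chosen on this difference. They also included genes that were higher on the mutant array. Probe sets common to Tgtp1 and Tgtp2 lay lower than Ppargc1b, at −0.96.

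In genes of the type I interferon response, 18 of 25 measured were below 0, against 50.2% of all genes, with a median log2 difference of −0.08. Rtp4, a transmembrane chaperone (log2 signals 6.24 and 5.86), was the only one with a ratio of 0.8 or less, at 0.766. Among all named nuclear genes this share was 0.652%. Cmpk2 had 5.51 and 5.19, a ratio of 0.803. Rsad2, encoding the antiviral viperin, was at −0.25 and Ifit1 at −0.19, whereas Ifi27l2a was at 0.19 and Ddx58, a sensor of viral RNA, at 0.13. Many of these genes also respond to interferon-γ, so that the lists do not separate the interferons.

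**Figure D4:**
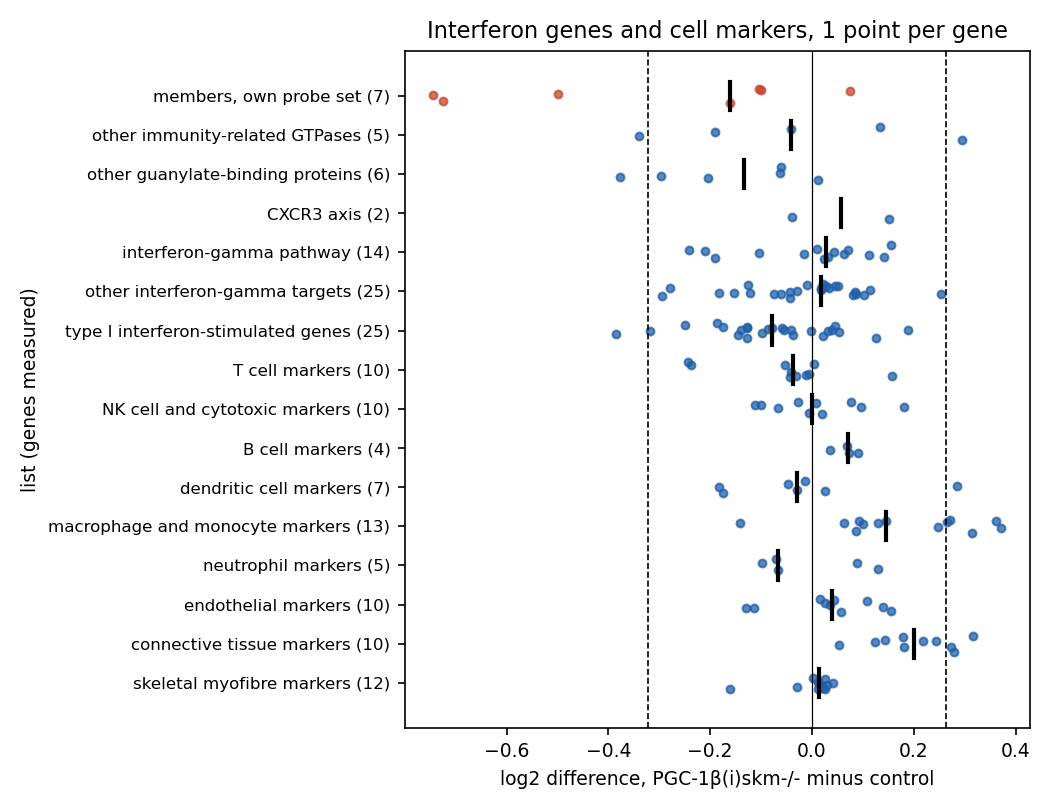
Mutant minus control log2 signal (horizontal axis) of each gene (points) in the members with a probe set of their own (red) and in 15 other lists (blue, vertical axis, with the number of genes measured), with list medians as black bars and dashed lines at ratios of 0.8 and 1.2. Medians are −0.16 for the members, 0.03 for the interferon-γ pathway, 0.14 for macrophage markers and 0.20 for connective tissue markers.

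In a whole muscle, fewer cells of a type and less RNA per cell cannot be told apart, and markers of the cells that the tissue could hold were therefore set beside the members. Skeletal myofibre markers had log2 signals of 12.64 to 13.88 in control muscle, the highest of all lists, and a median difference of 0.01. Of 10 T cell markers, 8 were below 0, against 50.2% of all genes, with a median of −0.04. The brightest, Cd28, was at 6.95 in control muscle, and log2 of the summed signal was 8.86 in control and 8.80 in mutant muscle. Cd3g was at −0.24, Cd28 at −0.24, Cd3d at −0.03 and Cd3e, also of the T cell receptor complex, at 0.16. For 10 natural killer and cytotoxic cell markers, the median was 0.0011 and log2 of the summed signal 8.45 and 8.43.

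Of 13 macrophage and monocyte markers, 12 were above 0 and 1 below, whereas 50.2% of all genes were below 0. The median log2 difference was 0.14, and log2 of the summed signal was 10.80 in control and 11.03 in mutant muscle. C1qa and C1qb, of complement, Mrc1, C1qc and Csf1r, the receptor for a macrophage growth factor, were at 0.37, 0.36, 0.31, 0.27 and 0.27, all past the ratio of 1.2. This ratio was reached by 1.64% of all named nuclear genes. All 10 connective tissue markers were above 0 as well, with a median of 0.20, and Fmod, Tnmd and Thbs4 had ratios of 1.25, 1.21 and 1.21. Endothelial markers, of cells in which these GTPases are also expressed, had a median of 0.04, with Cdh5 at 0.16 and Emcn at −0.13, and log2 of the summed signal at 12.26 and 12.31. Dendritic cell markers had a median of −0.03, with Flt3 at −0.18 and Cd209a at 0.29, neutrophil markers of −0.07 and B cell markers of 0.07. The part of these cells in the values of the members was not tested.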

How the data were processed

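Gene expression was measured in gastrocnemius RNA pooled from 3 mice per genotype, 150 ng of which was labelled per array. The authors scanned 1 array per genotype and deposited log2 signals per probe set, computed by RMA with default settings, which sets both arrays to the same distribution and would hide a shift common to all genes. A genome build of the array was not given in the sources used here. Coordinates are those of the RefSeq promoter table.

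Of 35556 probe sets, 21789 had 1 symbol in the platform annotation, 1621 had several and 12146 were not listed there. Symbols were updated by Entrez ID, with 21698 matched. The gene value was that of the probe set of highest mean signal, with no filter. A ratio is 2 raised to the log2 difference. No test was possible with 1 array per genotype.

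The members and the 16 lists were chosen with earlier results of these data known. All members were named, with every list gene at a ratio of 0.8 or less or 1.2 or more, and otherwise up to 4 genes of a list with the largest difference; other genes named were chosen after their values were seen, as was the rule of 3 flanking protein-coding genes per side. Alternatives were subtraction of the median or of a loess curve (span 0.3), the mean or the lowest of a gene's probe sets, minimum mean log2 signals of 6 and 7, folds of 1.2 and 1.5, and probe sets of several genes. Calculations were tested on simulated data and used Python 3.11.15, pandas 2.3.3, numpy 2.4.6 and statsmodels 0.14.6.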

Additional observations from a re-analysis of the deposited data

How the results depend on the processing

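The log2 differences of the 7 genes moved by at most 0.0536 under the alternatives run (Irf1, with its probe set of lowest difference), and none changed sign. As no replicates were available, a value was taken to have moved when it shifted by more than the standard deviation of 0.12 over all genes, and a count by more than 1.5 times. With genes of a mean log2 signal of 7 or more, 1 member (Cxcl9) remained at a ratio of 0.8 or less, since Iigp1 and Gbp5 are below this signal; the fold of 1.5 left 2, Iigp1 and Cxcl9. With genes of a signal of 6 or more, the counts became 0 for other immunity-related GTPases, both lower and higher, and 0 for dendritic cell markers higher, and medians became −0.30 for other guanylate-binding proteins, −0.24 for T cell markers (1 gene, Cd28) and 0.27 for macrophage markers, as fewer genes entered. Subtraction of a loess curve gave 2 type I interferon-stimulated genes at 0.8 or below, against 1. The other 82 of 85 values and 117 of 122 counts stayed within these bounds. Among them 3 list medians near 0 changed sign, those of other immunity-related GTPases (0.05 in place of −0.04, signal of 6 or more) and of natural killer markers (−0.0073 after loess subtraction and −0.05 at a signal of 6 or more, in place of 0.0011). No paired analysis was possible because each genotype has a single array. Neither detection above background nor the spread between mice was measured, which limits Gbp5, Cxcl10 and the other dim genes most.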
